A study of Mus musculus with 4 samples.

Results

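The miR-17-92 cluster is a run of miRNA hairpins cut from 1 primary transcript, and its mature strands were compared here between MIN6 cells and the exosomes collected from the medium of these cells. MIN6 cells are beta cells grown from a mouse insulinoma, and exosomes are small membrane vesicles that carry RNA out of a cell. The members are 8 of the 1915 mature miRNAs listed, chosen by name among the strands of the Mir17hg cluster and of the related hairpin mir-19b-2. They are mmu-miR-17-5p, mmu-miR-17-3p, mmu-miR-18a-5p, mmu-miR-19a-3p, mmu-miR-20a-5p, mmu-miR-19b-3p, mmu-miR-19b-2-5p and mmu-miR-92a-3p, and the species prefix is left out from here on. The 5 other strands of Mir17hg, all without a count, are not among the members and are described apart from them. Small RNA was sequenced from 2 libraries of MIN6 cells and 2 libraries of MIN6-derived exosomes. The cells of both groups grew in medium with 15% exosome-depleted fetal bovine serum and 55 µM β-mercaptoethanol, and the exosomes were pelleted from the conditioned medium by ultracentrifugation. Cell and exosome libraries were checked for quality on different instruments, a difference that cannot be told apart from the group. The labels name 1 RNA kit for cells and exosomes, whereas the published methods name a different kit for each in the PCR quantification, so a difference in kit between the sequenced groups was not tested. The labels do not say whether the 2 libraries of a group came from separate cultures, so the p-values measure only the spread between these libraries, which may be technical.

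A miRNA hairpin yields a strand from its 5′ arm (5p) and one from its 3′ arm (3p), and usually 1 of them is loaded into Argonaute to repress messenger RNAs that pair with its seed, the bases 2 to 8. The miR-17-92 cluster is known as an oncogenic, MYC-induced locus that favors proliferation and survival. The mouse genome holds 2 paralogous clusters, miR-106a-363 on the X chromosome and miR-106b-25 in the gene Mcm7, so that most seeds of the cluster are also carried by miRNAs from other loci.

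The mature sequences are shown because the comparison turns on which miRNAs share a seed, which is given in capitals. The sequences were taken from the hairpin tables of the libraries and were identical to RefSeq on GRCm38.p6. The first group carries the miR-17 seed.
miR-17-5p: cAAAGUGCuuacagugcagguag
miR-20a-5p: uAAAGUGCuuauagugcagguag
miR-106a-5p: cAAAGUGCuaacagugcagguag
miR-93-5p: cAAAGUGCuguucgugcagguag
miR-106b-5p: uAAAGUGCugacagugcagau
miR-17-5p differs from miR-106a-5p of the X-linked cluster at 1 of 23 positions and from miR-20a-5p at 2, so a read with a mismatch could be counted at the wrong one. The second group carries the miR-92 seed.
miR-92a-3p: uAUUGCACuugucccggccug
miR-25-3p: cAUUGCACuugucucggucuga
miR-92b-3p: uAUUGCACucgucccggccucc
miR-32-5p: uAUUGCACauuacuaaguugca
The remaining members carry the miR-18 seed, the miR-19 seed or the seed of a passenger strand.
miR-18a-5p: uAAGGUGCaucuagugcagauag
miR-19a-3p: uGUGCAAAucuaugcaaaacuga
miR-19b-3p: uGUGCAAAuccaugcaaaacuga
miR-17-3p: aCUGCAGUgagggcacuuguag
miR-19b-2-5p: aGUUUUGCagauuugcaguucagc
miR-19a-3p and miR-19b-3p differ at 1 of 23 positions. Among the 139565 transcripts that GENCODE vM21 lists outside miRNA genes, no member's sequence had an exact match outside Mir17hg.

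On GRCm38, Mir17hg is a lincRNA gene on the plus strand of chromosome 14 (chr14:115042879-115046727), and all 6 hairpins of the cluster lie inside annotated exon sequence of it. They are, in order, mir-17 (chr14:115043671-115043754), mir-18a (chr14:115043851-115043946), mir-19a (chr14:115044000-115044081), mir-20a (chr14:115044157-115044263), mir-19b-1 (chr14:115044305-115044391) and mir-92a-1 (chr14:115044427-115044506), a span of 836 bases. A further copy of miR-19b-3p and of miR-92a-3p lies on the minus strand of the X chromosome, where no host gene is annotated around the hairpins. There miR-19b-3p is part of mir-19b-2 (chrX:52741983-52742066) and miR-92a-3p of mir-92a-2 (chrX:52741838-52741928). The member miR-19b-2-5p comes from the X chromosome alone.

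Mature miRNAs held 2930217 and 2564068 reads of the cell libraries, against 47447 and 31409 of the exosome libraries. A floor of 3 counts corresponds to 1.55 and 1.91 CPM for the cells and to 35.4 and 69.9 CPM for the exosomes. Here CPM is the count scaled by the TMM-normalized library size. RPM is the authors' scaling by the sum of mature counts alone. Intervals given here cover counting error only, and a strand packed into fewer vesicles and fewer copies per vesicle cannot be told apart. The beta-cell miRNAs miR-375-3p, miR-375-5p, miR-7a-5p, miR-7b-5p and miR-7a-2-3p together stood at 78084 and 85887 CPM in the cells and at 13960 and 7964 CPM in the exosomes, and each had counts in all 4 libraries. All 5 were called lower, but none of them was with library size alone. Lists of miRNAs of other cell types went the other way. The summed level of 5 erythroid miRNAs was 3.11 and 5.73 CPM in the cells and 6178 and 1490 CPM in the exosomes, with miR-451a and miR-144-3p at 0 in both cell libraries. For 4 myeloid miRNAs it was 0.518 and 0.637 CPM against 943 and 489 CPM, with miR-142a-3p at 0 in both cell libraries and miR-223-5p at 0 in all 4. For 2 liver miRNAs it was 6.73 and 13.4 CPM against 967 and 1490 CPM, and for 2 endothelial miRNAs 74.5 and 104 CPM against 5188 and 6730 CPM. The tested miRNAs of these 4 lists were called higher in the exosomes (3 of 3 erythroid, 3 of 3 myeloid, 1 of 1 liver and 2 of 2 endothelial), against 23.7% of all tested miRNAs. The 3 erythroid and 3 myeloid ones passed the filter on low counts only through their exosome counts, so that a difference was built into their selection and their number supports nothing. The same limit holds for the tested liver miRNA, miR-122-5p. It stood at 4.44 and 8.19 RPM in the cells, so that only 1 cell library reached the cutoff of 7.66 RPM, but both exosome libraries did. miR-486a-5p and miR-486b-5p also had identical counts in every library, each at 2830 and 675 CPM in the exosomes. The erythroid sum, and the number of erythroid miRNAs called, may therefore hold the same reads more than once. The summed levels of these lists lay in the same direction as the members described next, and their part in those results was not tested.

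The strands of the miR-17-92 cluster were scarce in the MIN6 cells and far more frequent in the MIN6-derived exosomes. All 8 members together took 44 of the mature counts of cell replicate 1 and 24 of those of replicate 2, but 204 and 45 of those of the exosome libraries, which were sequenced far less deeply. This corresponds to 0.0015% (95% Wilson interval 0.00112 to 0.00202) and 0.000936% (0.000629 to 0.00139) of the mature counts of the cell libraries, and to 0.43% (0.375 to 0.493) and 0.143% (0.107 to 0.192) of those of the exosomes. Both exosome libraries thus lay above both cell libraries, and they differed from each other by more than their counting intervals. The cells had a mean share of 0.00122% ± 0.0004 (SD, n = 2) and the exosomes one of 0.287% ± 0.203 (SD, n = 2). With 2 libraries a group, the smallest p of an exact permutation test is 0.33, so the fit across all miRNAs was used for single strands.

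**Figure D1:**
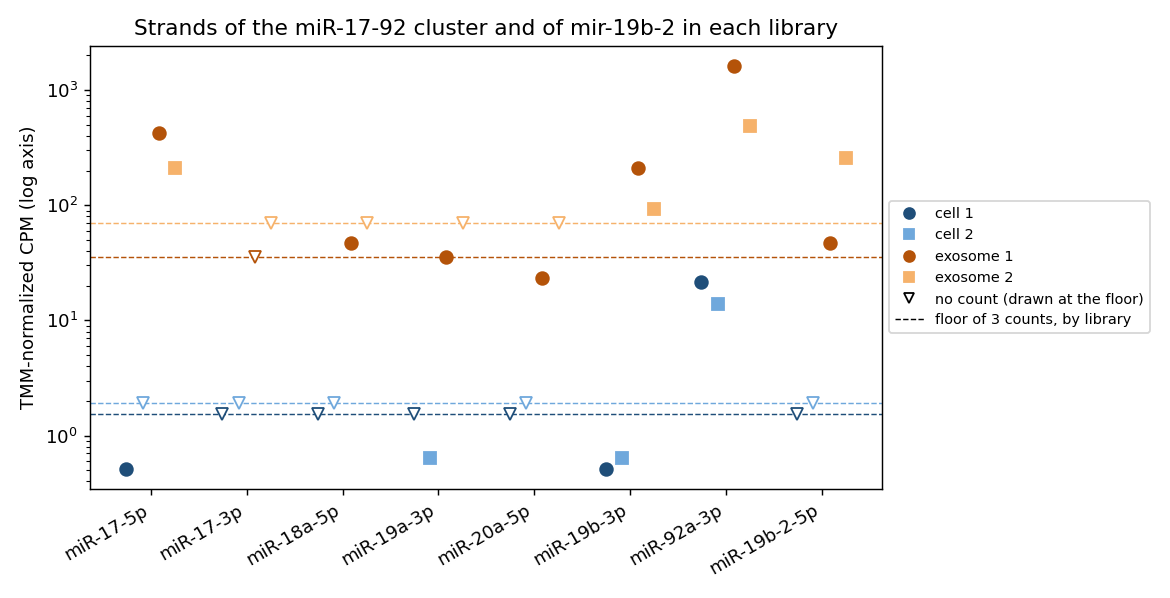
TMM-normalized CPM (log axis) of the 8 members in the 2 cell libraries (blue) and the 2 exosome libraries (orange), with strands without a count drawn as open triangles at the floor of 3 counts of their library (dashed lines) and points below a dashed line resting on 1 or 2 counts. miR-17-5p, miR-19b-3p, miR-92a-3p and miR-19b-2-5p have both exosome points above both cell points.

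Of the 8 members, 7 had a count in at least 1 library and 4 passed the filter of edgeR's filterByExpr. In the quasi-likelihood fit of edgeR, with adjusted p under 0.05 as the threshold, 4 of these were higher in exosomes and 0 were lower, and 0 were lower also by the exactTest of edgeR, by DESeq2 and at an unadjusted p under 0.05. Across all 438 tested miRNAs, 23.7% were called higher and 29.5% lower, or 53.2% in either direction. All 4 tested members had both exosome libraries above both cell libraries, as did 33.3% of all tested miRNAs, while 51.8% had them below. By the study's threshold on the exactTest, a fold of at least 2 at an unadjusted p under 0.05, the same 4 members were higher. Of all tested miRNAs, 27.4% were higher and 37.9% lower by it. The filter and scaling were those used here, and the paper itself reports more miRNAs higher than lower at this threshold. miR-17-5p, miR-19b-3p and miR-19b-2-5p passed the filter only through their exosome counts, so that for these a difference was built into the selection and their number supports nothing. miR-92a-3p passed it in all 4 libraries. Over all tested miRNAs the log2 fold change had a median of -0.75, and fold changes are to be read against that shift.

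miR-92a-3p, the guide strand of the last hairpin, was the most abundant member in both groups. The cell libraries held 42 and 22 counts of it, or 21.7 and 14.02 CPM, and the exosome libraries 137 and 21, or 1615 and 489 CPM. Both exosome libraries lay far above both cell libraries, although replicate 1 of the exosomes also lay well above replicate 2. The cells had a mean of 17.9 ± 5.46 CPM (SD, n = 2) and the exosomes one of 1052 ± 796 CPM (SD, n = 2). The fitted log2 fold change was 5.88 ± 0.83 (standard error), with an adjusted p = 0.0103 in the quasi-likelihood fit of edgeR after Benjamini-Hochberg adjustment. By RPM it ranked 310 and 330 among all mature miRNAs of the cell libraries and 47 and 83 among those of the exosomes. The fitted value moved when a library was left out and was 5.48 without cell replicate 1, 4.98 without cell replicate 2, 5.12 without exosome replicate 1 and 6.57 without exosome replicate 2. It was 4.58 without a filter, 6.53 with upper quartile scaling and 7.28 with library size alone, and it passed the adjusted threshold in each of these fits.

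miR-17-5p, the guide strand of the first hairpin and the name giver of the family, was read 1 and 0 times in the cell libraries and 36 and 9 times in the exosome libraries. At the RPM of the exosome libraries, 2223 or 840 reads would have fallen on it in cell replicate 1, so that depth does not limit this comparison on the side of the cells. In CPM the cell libraries stood at 0.518 and 0 and the exosome libraries at 424 and 210. The ratio of the pooled counts was 1233 with an exact 95% counting interval of 210 to 49778, and the edgeR fit gave an adjusted p of 0.0065. The width of that interval comes from the single count in the cells. Without cell replicate 1 no count remained there and miR-17-5p was at least 112-fold higher against a floor of 3 counts per library. The ratio was 449 without cell replicate 2, 3153 with library size alone, 1960 with upper quartile scaling and 503 without a filter. Without exosome replicate 1 the ratio was 944, but miR-17-5p then did not pass the filter and was not tested.

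miR-19b-3p belongs to the miR-19 strands, which are regarded as the main oncogenic part of the cluster. Either cell library held 1 count of it and the exosome libraries 18 and 4, or 0.518 and 0.637 CPM against 212 and 93.1 CPM. The ratio of the pooled counts was 301 (exact 95% counting interval 74.1 to 2645, adjusted p = 0.0065 in the edgeR fit). It was 164 without cell replicate 1, 771 with library size alone, 479 with upper quartile scaling and 123 without a filter. Without exosome replicate 1 it was 210 and miR-19b-3p was not tested. Its reads fitted mir-19b-1 and mir-19b-2 equally, with 18 and 4 reads on each hairpin in the exosomes, so the counts cannot be divided between chromosome 14 and the X chromosome. miR-19a-3p, which has the same seed, was counted 0 and 1 times in the cell libraries and 3 and 0 times in the exosome libraries. Both groups were at or under the floor for miR-19a-3p, and no fold is given.

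miR-18a-5p and miR-20a-5p, the guide strands of the second and the fourth hairpin, had no count in the cells. miR-18a-5p had 4 and 0 counts in the exosomes and miR-20a-5p 2 and 0, all of them in replicate 1. In replicate 2, where 3 counts correspond to 69.9 CPM, neither was detectable at this depth. miR-18a-5p did not pass the filter, and its pooled exosome counts were at least 18.3-fold higher than a floor of 3 counts per cell library, or at least 7.45-fold without a filter, where it was tested and the edgeR fit gave an adjusted p of 0.0392. That bound rests on exosome replicate 1, since without it no fold can be given. It was at least 9.95-fold without cell replicate 1, 29.4-fold without exosome replicate 2, 29.04-fold with upper quartile scaling and 46.7-fold with library size alone. For miR-20a-5p the exosomes were under the floor as well.

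The passenger strand miR-17-3p had no count in any library, which allows a level of up to 1.02 and 1.17 RPM in the cells and up to 63.2 and 95.5 RPM in the exosomes. All 36 and 9 exosome reads on an arm of mir-17 were therefore on the 5p side (95% Wilson intervals of the 5p share 90.4 to 100% and 70.1 to 100%). The same was seen along the cluster. All 5 other strands of Mir17hg, miR-18a-3p, miR-19a-5p, miR-20a-3p, miR-19b-1-5p and miR-92a-1-5p, had 0 counts in the 4 libraries. The cluster was thus counted from 1 arm per hairpin, the 5p arm of mir-17, mir-18a and mir-20a and the 3p arm of mir-19a, mir-19b-1 and mir-92a-1. For mir-18a, mir-19a and mir-20a this rests on 4, 3 and 2 reads of exosome replicate 1 and 1 cell read of mir-19a. Their 95% Wilson intervals of the 5p share in that exosome library were 51.0 to 100%, 0 to 56.1% and 34.2 to 100%. Reads from their other arm can therefore not be excluded.

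mir-19b-2 on the X chromosome was the exception. Its 5p strand, the member miR-19b-2-5p, had no count in the cells and 4 and 11 counts in the exosomes, or 47.2 and 256 CPM. The 3p arm of the same hairpin had 18 and 4 reads, which fit the copy on chromosome 14 as well. The 5p share of the reads on its arms was 18.2% (95% Wilson interval 7.31 to 38.5) in exosome replicate 1 and 73.3% (48.0 to 89.1) in replicate 2, so the libraries differed by more than their counting intervals. miR-19b-2-5p was at least 68.5-fold higher in exosomes against a floor of 3 counts per cell library (adjusted p = 0.0211 in the edgeR fit). Much of the bound came from exosome replicate 2, since it was at least 192-fold without replicate 1 and at least 29.4-fold without replicate 2, and in neither case was the strand tested. It was at least 175-fold with library size alone, 109-fold with upper quartile scaling, 37.3-fold without cell replicate 1 and 28.0-fold without a filter.

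**Figure D2:**
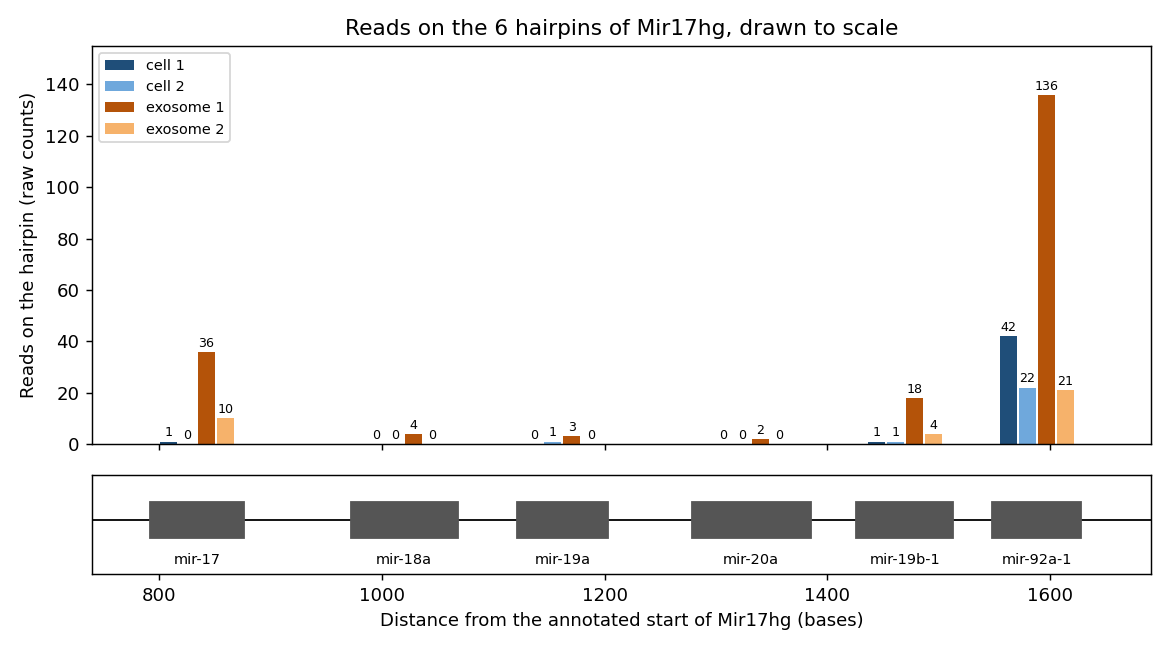
Raw reads on the 6 hairpins of Mir17hg in each library, placed by distance from the annotated start of the gene in bases, with the hairpins drawn to scale as grey boxes. In the exosomes the first hairpin and the last 2 hold most reads, up to 136 on mir-92a-1, while mir-18a, mir-19a and mir-20a hold at most 4.

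Although the hairpins of Mir17hg lie on 1 transcript, their mature strands were counted in very unequal numbers. The shares that follow are of all members, so their sum also holds miR-19b-2-5p, which comes from the X chromosome alone. Reads of miR-92a-3p and miR-19b-3p may also come from hairpins there, so the shares do not describe 1 transcript only. In the exosomes miR-92a-3p took 67.2% (95% Wilson interval 60.4 to 73.2) and 46.7% (32.9 to 60.9) of the counts of all members, and miR-17-5p took 17.6% (13.0 to 23.5) and 20% (10.9 to 33.8). For miR-19b-3p the shares were 8.82% (5.65 to 13.5) and 8.89% (3.51 to 20.7). The shares of miR-17-5p and miR-19b-3p were thus alike in both exosome libraries within counting error. miR-19b-2-5p took 1.96% (0.765 to 4.93) in replicate 1 and 24.4% (14.2 to 38.7) in replicate 2, where the intervals do not overlap. In the cells miR-92a-3p made up 95.5% (84.9 to 98.7) and 91.7% (74.2 to 97.7) of the member counts, above both exosome libraries. Only 4 reads in all fell on the other members there, 1 of miR-17-5p, 1 of miR-19a-3p and 2 of miR-19b-3p. In descending order of the mean exosome CPM the members were miR-92a-3p, miR-17-5p, miR-19b-3p, miR-19b-2-5p, miR-18a-5p, miR-19a-3p and miR-20a-5p, and neighbors in this order overlapped or met in their library values, except that both values of miR-92a-3p lay above both of miR-17-5p.

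The reads of the members lay on the annotated arms. On their hairpins, 0 of 305 reads in exosome replicate 1 and 2 of 54 in replicate 2 lay on neither arm, against 32.8% and 42.0% of the reads on all hairpins in these libraries. In the cells it was 0 of 87 and 0 of 47, against 10.9% and 9.58% on all hairpins. A read that fits several hairpins is counted at each of them in these totals.

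The reads of miR-92a-3p carried a further difference between cells and exosomes. Its copies on chromosome 14 and on the X chromosome are identical over the mature strand but differ from the first base after it, so that a read reaching past the 3′ end of the strand may fit only 1 copy. Read lengths are not part of the tables used here. The strand of each copy is shown with the next 5 bases of its hairpin in capitals, on GRCm38 at chr14:115044476-115044501 of the plus strand and chrX:52741849-52741874 of the minus strand.
mir-92a-1: uauugcacuugucccggccugUUGAG
mir-92a-2: uauugcacuugucccggccugAGGAA
In the cells, all 42 and 22 reads were counted at both hairpins. In exosome replicate 1, 136 reads were counted at mir-92a-1 and 84 at mir-92a-2, and in replicate 2 the numbers were 21 and 3. With the mature count taken as the number of reads on either hairpin, 53 of 137 reads (38.7%, 95% Wilson interval 30.9 to 47.0) and 18 of 21 reads (85.7%, 65.4 to 95.02) fitted mir-92a-1 only. Reads that fitted mir-92a-2 only numbered 1 and 0. For the cells the count of 0 allows a share of up to 7.14% and 13.6%. The reads counted at 1 hairpin only were thus almost all counted at mir-92a-1, and in the exosome libraries. The library kit adds a tail of A bases to the RNA. The first base after the strand is U in mir-92a-1 but A in mir-92a-2. A read of mir-92a-2 that ends on this A could lose it with the tail and be counted at both hairpins, which was not tested. The mismatches allowed in the alignment are not given in the sources used here either, so the copy from which a read came is not settled by these counts.

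**Figure D3:**
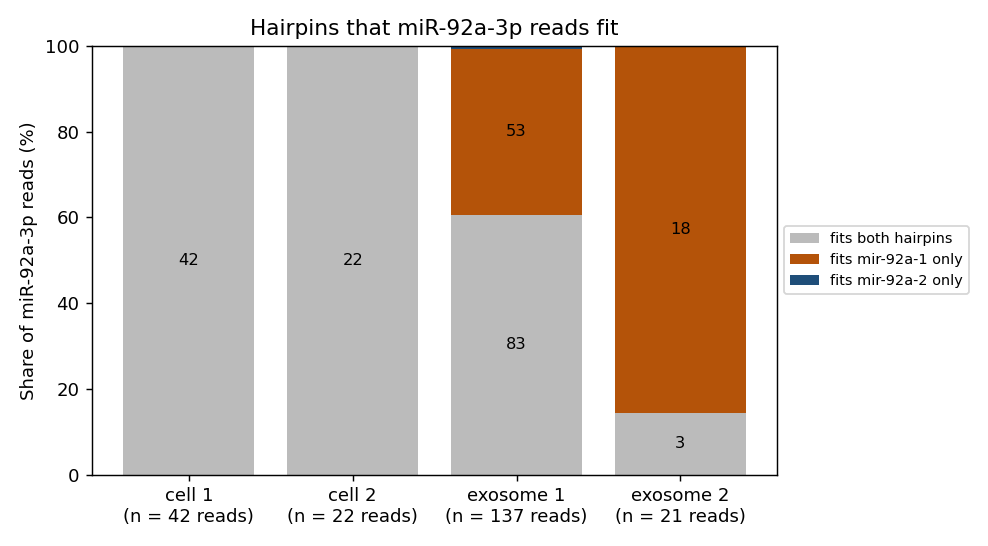
Share of the miR-92a-3p reads of each library that fit both of its hairpins (grey), mir-92a-1 of Mir17hg only (orange) or mir-92a-2 of the X chromosome only (dark blue), with read numbers in the bars. All cell reads fit both hairpins, while 53 of 137 and 18 of 21 exosome reads fit mir-92a-1 only.

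Among the miRNAs listed with 2 hairpins and with at least 20 counts in a library, miR-92a-3p had the highest share of reads on 1 hairpin only in both exosome libraries, out of 15 miRNAs in replicate 1 and 7 in replicate 2. In the cells it was among the 9 of 26 and the 10 of 27 with no such read. For every miRNA with 2 hairpins and a count (45 and 41 in the cell libraries, 37 and 30 in the exosome libraries), the mature count lay between the larger of its hairpin counts and their sum, as it must if a shared read is counted once. A count limited to reads that fit both copies, as all cell reads do, was added after the hairpin counts had been seen. By it, miR-92a-3p had 83 and 3 counts in the exosomes, or 1749 and 95.5 RPM, against 14.3 and 8.58 RPM in the cells. Both exosome libraries thus still lay above both cell libraries, with replicate 2 at the floor.

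The seeds of miR-92a-3p and miR-17-5p were not scarce in the cells, where strands of the miR-106b-25 cluster of Mcm7 carried them. miR-25-3p, which has the seed of miR-92a-3p, was read 138198 and 136649 times in the cell libraries but 1162 and 188 times in the exosome libraries. It changed by -3.13 ± 0.80 (log2 fold change ± standard error, adjusted p = 0.0344 in the edgeR fit), in the opposite direction to miR-92a-3p. miR-93-5p, with the seed of miR-17-5p, was read 9157 and 7635 times in cells and 195 and 16 times in exosomes. Its value of -1.82 ± 0.91 did not pass the threshold (adjusted p = 0.157 in the edgeR fit). miR-106b-5p, with the same seed, was read 199 and 134 times in cells and 7 and 0 times in exosomes, with a log2 value of -0.88 (adjusted p = 0.433 in the edgeR fit).

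Of the 6 strands of miR-106b-25, all were tested, 3 were lower in exosomes (miR-25-3p, miR-106b-3p and miR-93-3p) and 0 were higher, against 29.5% lower and 23.7% higher among all tested miRNAs. By DESeq2 and by the exactTest of edgeR with adjusted p, miR-93-3p was not called (adjusted p = 0.0626 and 0.0661). The median of the 6 was -1.55 on the log2 scale, against -0.75 for all tested miRNAs. These lower calls depend on the scaling, since with library size alone none of the 6 was called, miR-93-3p turned to 0.06 and miR-25-3p stood at -1.71 (adjusted p = 0.166 in the edgeR fit). With upper quartile scaling 1 was called, and without cell replicate 2 none was. miR-92b-3p and miR-32-5p, 2 other miRNAs of the miR-92 seed, were not called in the edgeR fit. By the exactTest of edgeR, and in the fit without a filter, 1 of them was called lower. miR-92b-3p was read 99 and 71 times in cells and 5 and 1 times in exosomes, and miR-32-5p 181 and 181 times against 3 and 0.

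**Figure D4:**
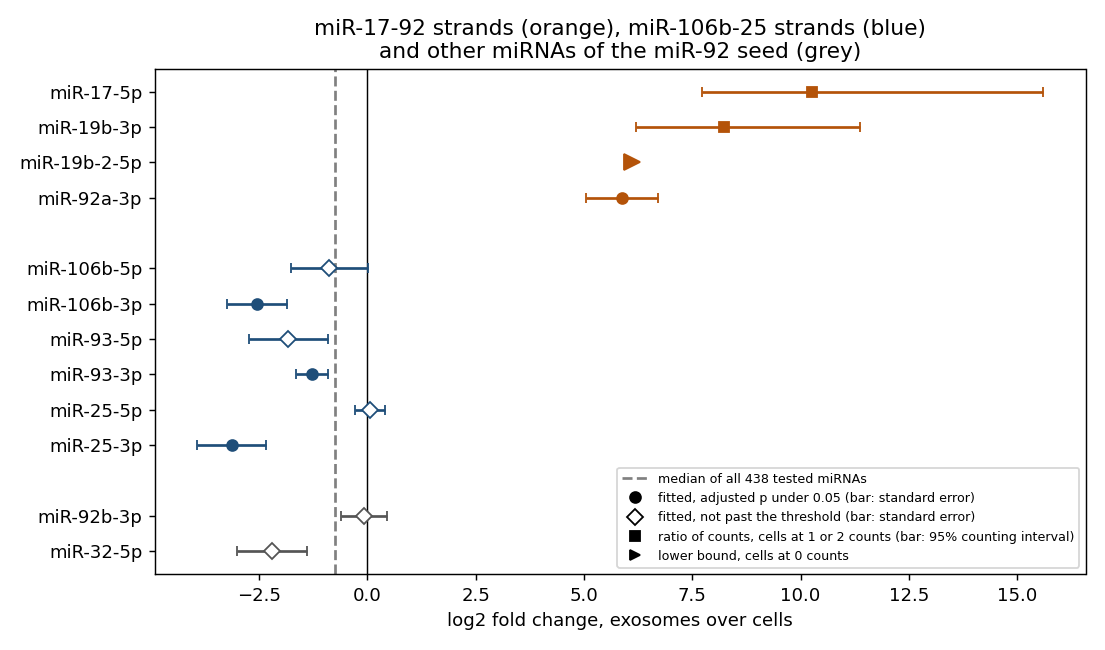
Log2 fold change of exosomes over cells for the 4 tested members (orange), the 6 strands of miR-106b-25 (blue) and 2 other miRNAs of the miR-92 seed (grey), with the meaning of bars and symbols in the legend and the median of all tested miRNAs as a dashed line. miR-92a-3p has a fitted value of 5.88, miR-17-5p and miR-19b-3p have ratios of pooled counts of 10.27 and 8.24, miR-19b-2-5p has a lower bound of 6.10, and the other strands have fitted values between -3.13 and 0.05.

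The ratio of miRNAs with the same seed within a library needs no scaling between libraries. Per 1000 reads of miR-25-3p there were 0.304 and 0.161 reads of miR-92a-3p in the cell libraries, against 117.9 and 111.7 in the exosome libraries. The 2 exosome libraries were close to each other in this ratio, and the lower of them was 368 times the higher cell library. Per 1000 reads of miR-93-5p there were 0.109 and 0 reads of miR-17-5p in the cell libraries, against 184.6 and 562.5 in the exosome libraries. In both pairs the exosome libraries lay above the cell libraries, and the smallest p that an exact permutation test of these ratios allows is 0.33. Per 1000 reads of miR-92b-3p, which was scarce itself, there were 424 and 310 reads of miR-92a-3p in the cell libraries, against 27400 and 21000 in the exosome libraries, where miR-92b-3p had only 5 and 1 counts. Relative to miR-25-3p, miR-92a-3p was thus more frequent in both exosome libraries, but miR-25-3p still outnumbered it there.

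**Figure D5:**
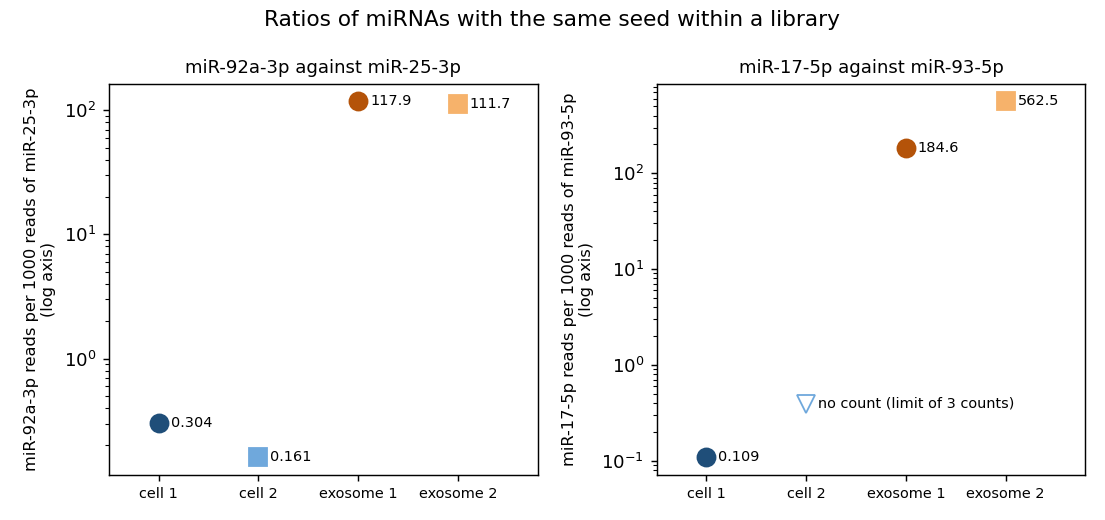
Reads of miR-92a-3p per 1000 reads of miR-25-3p (left) and of miR-17-5p per 1000 reads of miR-93-5p (right) in each library, on log axes, with cell replicate 2 on the right drawn at the limit of 3 counts because it had no miR-17-5p read. The exosome libraries stand at 117.9 and 111.7 on the left and at 184.6 and 562.5 on the right, all above the cell libraries.

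Apart from miR-19b-2-5p, the strands that come from the X-linked paralogous cluster alone had almost no counts. The reads of miR-19b-3p and miR-92a-3p, which also have a copy there, are left out of this statement. Of 9 strands of miR-106a-363 beside those shared with the members, only miR-106a-5p had a count, read 1 and 0 times in cells and 2 and 0 times in exosomes. Its sequence differs from miR-17-5p at a single position, and no fold is given for it. The 8 strands without a count include miR-92a-2-5p, the other arm of the X-linked copy of miR-92a-3p, as well as both arms of the neighboring miR-363.

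miR-127-5p, a strand of the imprinted Dlk1-Dio3 region, had the smallest distance in pattern to miR-92a-3p and also to miR-19b-3p. The measure was the Euclidean distance of centered log2 CPM over the 4 libraries, among tested miRNAs outside the lists of related strands. The distance was 0.78 to miR-92a-3p and 0.52 to miR-19b-3p, and its own counts were 2 and 1 in cells against 13 and 4 in exosomes. Next to miR-92a-3p came miR-142a-3p (distance 1.01) and miR-134-5p (1.05), and next to miR-19b-3p came miR-466h-3p (0.94) and miR-351-5p (0.98). The cell counts of miR-19b-3p, miR-127-5p, miR-142a-3p and miR-351-5p were between 0 and 2, so that these distances, and with them the order, depend on the prior count of 2.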

How the data were processed

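According to the published methods, the authors trimmed adapters, removed reads of rRNA and placed what was left on the genome, on miRBase and on RNAcentral in turn. The submitters' processing notes name mm10 as the build. Library preparation used the SMARTer smRNA-Seq kit, which adds a poly(A) tail to the RNA. The deposited mature table holds raw read counts and RPM values, which equal each count over its library's sum, and the hairpin tables hold deposited counts per hairpin and arm. Arm entries were read only where an arm held 1 whole number.

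Groups and replicate numbers came from the sample titles. miRNAs were kept by filterByExpr (minimum count 10) and tested with glmQLFit and glmQLFTest of edgeR 4.0.16 under TMM normalization, with Benjamini-Hochberg adjustment over all 438 that passed. The study used the exactTest of edgeR, which is an alternative here, as is DESeq2 1.42.0. Standard errors were derived from the F statistic. Where all libraries of a group had 0 counts, the fold is a bound against 3 counts per library. Where they had 1 to 3, it is the ratio of pooled counts over pooled effective library sizes, with an exact conditional 95% interval. Distances between patterns used a prior count of 2. All 8 members are described, with lists of related strands and of cell type markers. The members and lists were chosen with earlier results of these data known. Further alternatives were RLE, upper quartile and library size scaling, no filter, a minimum of 10 counts per library, a block for the replicate number, removal of the 5 leading miRNAs of either group, and removal of each library. The quasi-likelihood fit was tried on simulated counts with 1 spread common to all miRNAs and log2 changes of 3 in either direction. These changes are smaller than those of the tested members, and calls that rest on few cell counts were not assessed by it. R 4.3.3, Python 3.11.15, scipy 1.17.1, pandas 2.3.3 and matplotlib 3.10.9 were used.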

Additional observations from a re-analysis of the deposited data

How the results depend on the processing

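The log2 fold changes and bounds of miR-17-5p, miR-19b-3p, miR-19b-2-5p and miR-92a-3p kept their direction and their side of the threshold in all 49 alternative values from fits that tested them. Of these, 14 are of miR-92a-3p. The rest are of the other 3, which passed the filter through their exosome counts wherever one was used, so their number says nothing about stability. The bound of miR-19b-2-5p was lowest without a filter (4.80 on the log2 scale). The number of members higher in exosomes was 4, and it ranged from 1 to 4 when each library was left out. It was 1 without exosome replicate 1 and also 1 with a minimum of 10 counts per library, because fewer members were tested there, and 5 without a filter, where miR-18a-5p was added. Over all tested miRNAs, 104 were higher and 129 lower. That minimum left 100 miRNAs tested, of which 37 were higher and 40 lower. The number of lower miRNAs was 30 with library size alone and 202 without a filter. When each library was left out, 46 to 115 miRNAs were higher and 56 to 162 lower. These fits leave 1 library in a group, which is assumed to vary like the other group. Higher calls made up 44.6% of all calls under TMM. They made up 82.0% under library size alone, 57.6% under upper quartile scaling and 34.0% without a filter, where the median over all tested miRNAs was 0.61, -0.07 and -1.67 on the log2 scale.

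Without miR-19b-3p in the sum, the share of miR-92a-3p in the member counts of the cells moved from 93.6% to 96.7%, and that of miR-17-5p in the exosomes from 18.8% to 20.7%. The direction of these moves was fixed in advance, since a smaller sum can only raise the shares of the remaining counted members. With the replicate number as a block, 4 members were again higher, 0 lower, and 117 higher and 109 lower miRNAs were called in all. Same-numbered libraries had a correlation of 0.19 of their deviations from the group means, but with 2 pairs and labels that name nothing shared, the libraries share only a number. The block took the call from miR-93-3p (adjusted p = 0.230 in the edgeR fit). The depth of the exosome libraries limits what can be said of miR-17-3p, miR-18a-5p, miR-19a-3p and miR-20a-5p.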
